A study of Mus musculus with 12 samples.

Results

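The response of wild-type activated B cells to interleukin-4 (IL-4) was measured by comparing 3 arrays of cells cultured with IL-4 (groups labelled WT_IL-4) with 3 arrays of cells cultured without it (WT_contr), which are 6 of the 12 arrays of the study. The arrays were chosen by their labels alone, and every gene on them was considered. B cells came from spleens of wild-type female BALB/c mice 9 weeks old and were enriched by a kit that removes other cells. All 6 cultures, the controls included, received 10 µg/ml of an antibody to CD40 and 2 µg/ml of lipopolysaccharide (LPS) for 4 days, with fresh medium on day 3, so the comparison is of activated B cells with and without 25 ng/ml IL-4 and not with resting cells. The other 6 arrays hold STAT6 knockout (STAT6 ko) B cells of the same strain, sex and age under the same activation, 3 without and 3 with IL-4. Their levels are given only where stated, but the gene filter and the spread in every test use all 12 arrays. The labels describe triplicate samples of purified B cells and do not say whether each came from its own animal. The p-values therefore measure the spread within triplicates of all 4 groups, which may be technical.

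IL-4 is a cytokine of T helper cells, mast cells and basophils. Its receptor on B cells pairs the IL-4 receptor alpha chain with the common gamma chain, and the kinases bound to them phosphorylate STAT6, which enters the nucleus and binds DNA at a palindrome with the sequence TTC at its left and GAA at its right end. In B cells IL-4 is best known for raising the low-affinity IgE receptor CD23 (gene Fcer2a) and its own receptor, and for directing immunoglobulin class switching to IgG1 and IgE, while LPS without IL-4 favours other IgG classes.

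Levels are given as log2 signal relative to the 75th percentile of the same array, so a difference of 1 is a 2-fold difference, and changes printed without the word fold are log2 differences; because probes differ in brightness, levels are compared only within a gene. In the text, rose and fell mean a Benjamini-Hochberg adjusted p under 0.05 in limma's moderated test over 16498 genes, and called means that the change was also at least 2-fold. On the wild-type arrays 41.0% to 42.9% of spots were well above background and none was saturated. All 6 wild-type arrays lay on the same slide. Arrays of the same group correlated at 0.996 to 0.998 across genes, which are not independent of each other. The spread of a gene within a group had a median SD of 0.072 among controls and 0.069 among IL-4 arrays. All 10 B cell markers, Cd79a and Ms4a1 among them, were well above background on every wild-type array, with a summed linear signal of 1500 to 1541 on control and 1641 to 1697 on IL-4 arrays. Their changes went both ways, since 3 rose, 5 fell and 2 did not pass, with a median of -0.22. These are bulk cultures, in which fewer cells of a type and less RNA per cell cannot be told apart.

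IL-4 changed a large part of the transcriptome. Of the 16498 genes tested, 943 were called higher (5.72%) and 1147 lower (6.95%). On the adjusted p alone 4348 rose (26.4%) and 5082 fell (30.8%), and the median gene moved by -0.04. At least 4-fold changes numbered 344 higher and 340 lower, and at least 16-fold changes 66 higher and 50 lower. The 3 arrays of each group did not overlap for 2081 of the 2090 called genes, against 69.2% of all genes tested. Of 622 further probes for called genes, 612 moved the same way as the probe that stood for the gene. Among the called genes, 647 carry a clone or locus name rather than a gene symbol, and 4, all lower, were well above background on no wild-type array and have no reliable value. With normexp background correction 592 genes were called higher and 590 lower.

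**Figure D1:**
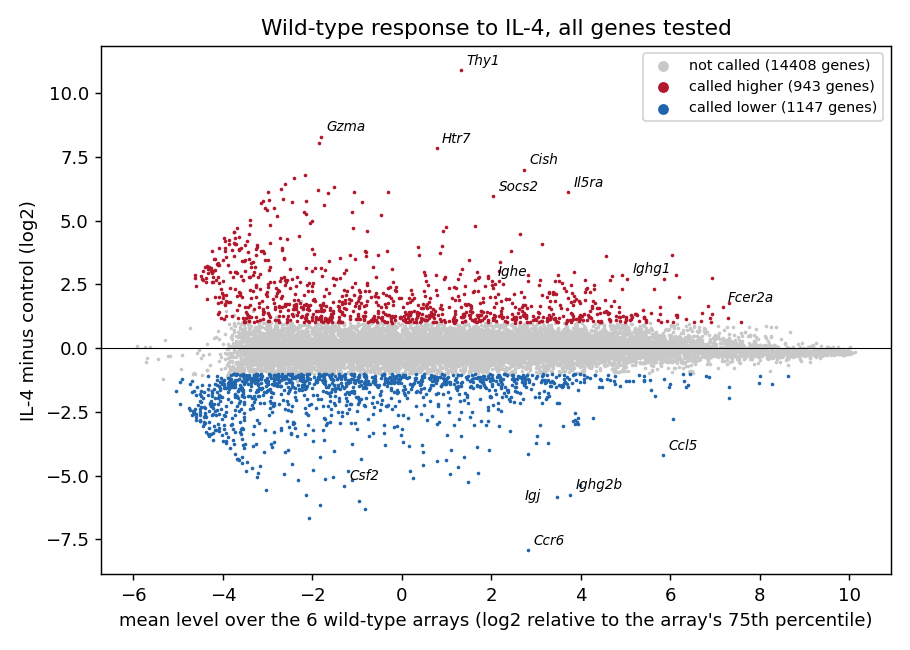
Each point is a gene tested in wild-type cells; the horizontal axis is its mean level over the 6 arrays (log2 relative to the 75th percentile of the array) and the vertical axis the IL-4 minus control difference (log2). The 943 genes called higher (red) and 1147 called lower (blue) lie across most of the range of levels, with Thy1 at the top and Ccr6 at the bottom.

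The promoters of 9646 of the tested genes, by symbol, were in the RefSeq table of build GRCm38.p6. The 250 bases before the annotated start were searched on both strands for TTC and GAA with any 4 bases between them, the spacing that STAT6 is known to bind, for TTC and GAA with any 3 bases between them, the spacing of most other STAT proteins, and for GAAA and GAAA with any 2 bases between them, the core of the element bound by interferon regulatory factors. Matches of different motifs may overlap. The sequences shown are those of Fcer2a, the classical IL-4 target, of Ccr6, the gene with the largest measured fall, and of Ifit1 and Gbp3. Ifit1 and Gbp3 are interferon-stimulated genes that fell, and both hold matches of the GAAA motif. Capitals mark the matches, given 5' to 3' on the strand of the gene; the matches in Gbp3 overlap.
Fcer2a (chr8:3690862-3691111, minus strand), a listed promoter, with a match of the 4-base spacing: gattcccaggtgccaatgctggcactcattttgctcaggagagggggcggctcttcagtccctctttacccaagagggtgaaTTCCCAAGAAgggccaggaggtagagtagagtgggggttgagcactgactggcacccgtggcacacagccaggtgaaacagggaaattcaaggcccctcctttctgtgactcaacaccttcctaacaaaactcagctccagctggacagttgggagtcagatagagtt
Ccr6 (chr17:8235793-8236042, plus strand), a listed promoter, with 2 matches of the 3-base spacing: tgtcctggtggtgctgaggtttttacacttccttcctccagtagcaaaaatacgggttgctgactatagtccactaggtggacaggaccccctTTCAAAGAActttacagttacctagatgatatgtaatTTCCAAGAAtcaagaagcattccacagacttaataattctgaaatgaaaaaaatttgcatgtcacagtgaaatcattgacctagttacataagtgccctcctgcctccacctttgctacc
Ifit1 (chr19:34640639-34640888, plus strand), with 2 matches to the interferon motif on the other strand: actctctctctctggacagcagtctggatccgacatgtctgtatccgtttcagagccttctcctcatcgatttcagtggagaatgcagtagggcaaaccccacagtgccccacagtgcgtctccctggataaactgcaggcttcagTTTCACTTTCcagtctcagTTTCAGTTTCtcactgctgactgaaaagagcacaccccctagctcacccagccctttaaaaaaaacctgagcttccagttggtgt
Gbp3 (chr3:142559794-142560043, plus strand), a listed promoter, with 2 matches to the interferon motif on the other strand: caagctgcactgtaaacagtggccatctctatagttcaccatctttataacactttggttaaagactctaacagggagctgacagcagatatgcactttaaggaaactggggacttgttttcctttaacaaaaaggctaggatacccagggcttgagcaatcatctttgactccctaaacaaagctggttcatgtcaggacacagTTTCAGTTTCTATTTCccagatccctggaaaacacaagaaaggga
The match in Fcer2a begins 168 bases before the annotated start. The 4-base spacing was present in 5.39% of 853 promoters of genes called higher, in 5.88% of 765 promoters of genes called lower and in 4.58% of 12247 promoters of all genes tested. For the 3-base spacing the shares were 6.10%, 6.93% and 6.06%. The interferon motif was found in 2.34% of promoters of genes called higher, 6.01% of those called lower and 2.57% of all, and in 17 of 47 promoters (36.2%) of the interferon-stimulated genes tested. Over all 32851 promoters in the table the shares were 5.85%, 7.02% and 2.98%. These shares are descriptions without a test, and a match is not evidence that a factor binds. Among the interferon-stimulated genes, Bst2, which did not pass (0.07), and Slfn5, which rose (0.22), held the interferon motif too. The listed promoters of Cish, Htr7, Il5ra, Il4ra and Nfil3 held no match to these motifs in this window.

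The genes that rose most while measurable in both groups were Htr7, Cish, Il5ra and Socs2. Htr7, a serotonin receptor coupled to adenylyl cyclase (probe at chromosome 19, 36033339 to 36033398, mm9), lay at -3.22, -3.06 and -3.13 on the control arrays and 4.73, 4.68 and 4.67 on the IL-4 arrays. Its groups were far apart, and the change of 7.83 ± 0.18 (SE, n = 3 per group) is 228-fold (limma, adjusted p 2.64e-10). Il5ra, the alpha chain of the interleukin-5 receptor, rose from 0.59, 0.79 and 0.60 to 6.80, 6.77 and 6.75, which is 69.3-fold, with SE 0.097 on the log2 scale. The next genes were Oit3 (5.23), the G protein beta subunit gene Gnb4 (4.79), the phospholipase C gene Plcd1 (4.75), the galactosyltransferase gene B4galt4 (4.60) and the lipid flippase gene Atp11a (4.46).

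Ranks 10 to 25 ran from 4.06 for Serpinb6b to 3.51 for Rassf6. Among them were 3 serpins, protease inhibitors of the clade a and b families (Serpinb6b, Serpina3i and Serpina3g), and genes of lipid handling, namely Fads3 (3.74), a member of the fatty acid desaturase family, and Pltp (3.54), which transfers phospholipids between lipoproteins. P2rx3, an ATP-gated ion channel, rose by 3.64, and Gif, which encodes the vitamin B12 carrier known as intrinsic factor in the stomach, rose by 3.81. Ly75, the endocytic receptor DEC-205, went from -2.56, -2.75 and -2.50 to 0.91, 1.01 and 1.13. Emilin2, Agap1, Tacc2, Ndrg2, Nebl, Spsb1 and Nfil3 complete the ranks. The SE of Ndrg2 (0.65) was the largest of the 25, while its wild-type arrays lay at -2.70, -2.47 and -2.88 and 1.18, 1.05 and 1.01, since the fit takes the spread from all 12 arrays.

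The largest fall was that of Ccr6, the receptor for the chemokine CCL20 (probe at chromosome 17, 8449933 to 8449992, mm9). Controls stood at 6.82, 6.78 and 6.75 and IL-4 arrays at -1.25, -1.24 and -0.92, a fall of 7.92 ± 0.085 (SE) or 243-fold (limma, adjusted p 3.72e-12). Nid1, a basement membrane glycoprotein, fell by 5.25, and Fcrla, an intracellular Fc receptor-like protein of B cells, by 5.11. Genes entered these ranks, of rises and of falls, only if the arrays of both groups did not overlap.

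Further down the ranks stood genes of lipid and ester metabolism: Pla1a (-4.64), a phospholipase acting on phosphatidylserine, the carboxylesterases Ces2b (-4.07) and Ces2c (-3.88), and Cd36 (-3.67), a scavenger receptor for fatty acids and lipoproteins. Anxa1 fell by 4.37, Wnt10a, a secreted Wnt ligand, by 4.00, and Lgals3bp by 3.98. Mpeg1, which encodes the pore-forming perforin-2, fell from 4.86, 4.89 and 4.84 to 1.17, 1.06 and 1.18. Prg2, the eosinophil granule major basic protein, fell by 3.46. Snx22, Pcbd1, Spns3 and Tmcc3 fell by 4.34, 3.80, 3.78 and 3.71. Tlr12 closes the 25 ranks at -3.40.

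**Figure D2:**
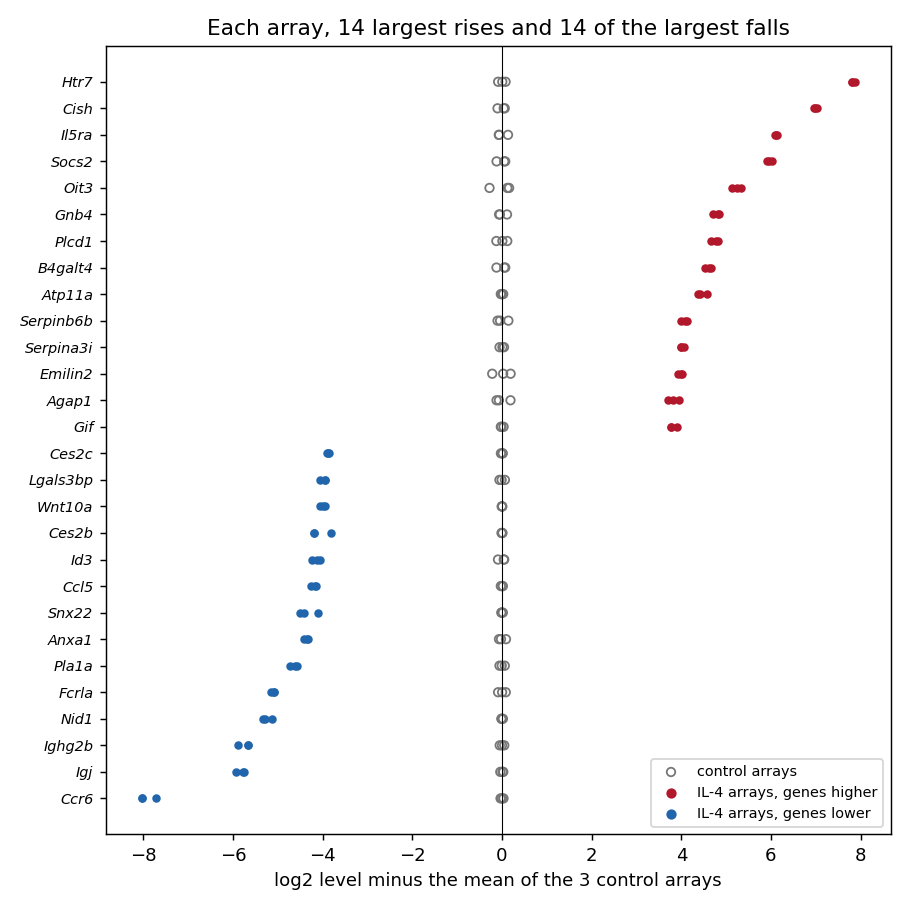
Points are single arrays, shown as log2 level minus the mean of the 3 controls, for the 14 largest rises and 14 of the largest falls among genes well above background on all 6 arrays. Open circles are control arrays and filled circles IL-4 arrays (red for higher, blue for lower genes). Genes were chosen to have no overlap between the groups, so the gap between them was set by the choice.

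Within the IL-4 signalling pathway the receptor chain and the STAT5 genes rose, while STAT6 itself did not pass the test. Il4ra lay at -2.69, -2.82 and -2.77 on control and 0.12, 0.06 and 0.34 on IL-4 arrays, a change of 2.93 ± 0.20 (SE, adjusted p 5.53e-07, limma). Stat6 read 3.11, 3.23 and 3.20 without and 3.42, 3.38 and 3.29 with IL-4, a difference of 0.19 ± 0.081 with adjusted p 0.0733. Stat5a, which transmits signals of many cytokines, rose from 3.12, 3.14 and 3.08 to 5.28, 5.31 and 5.31, and Stat5b rose by 1.34. Stat4 rose by 0.76. Ptpn6, the phosphatase SHP-1 that dampens receptor signalling, fell by 0.93. Of the 18 pathway genes listed, 16 were tested: 7 rose, 6 fell and 3 did not pass, with a median of 0.05.

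Of 11 feedback inhibitors tested, 6 rose, 1 fell (Pias1, -0.16) and 4 did not pass, with a median of 0.52; 4 were called higher. Cish, an SH2 protein that binds activated cytokine receptors, lay at -0.87, -0.73 and -0.71 on control and 6.26, 6.19 and 6.22 on IL-4 arrays, a 127-fold change. Socs2, of the same family, stood at -1.05, -0.88 and -0.86 and 5.10, 4.98 and 5.01. Socs3 rose by 2.64 ± 0.17 and Socs1, an inhibitor of JAK kinases, by 2.09 ± 0.089 (SE). The 4 called members were separate between groups on every array, while Socs4, Socs5 and Socs6 did not pass.

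Receptors for other cytokines moved in both directions: of 26 tested, 13 rose and 8 fell, with 6 called higher, 2 called lower and a median of 0.15. Beside Il5ra, the called rises were Il1r1, Il12rb1 (1.68), Il7r (1.21), Il1r2 and Il2rb (1.02, with 0.61 from a second probe). Il1r1, the signalling IL-1 receptor, was not well above background on any control array and was higher with IL-4 by at least 4.49-fold. Il9r, the IL-9 receptor chain, fell from 3.53, 3.61 and 3.51 to 1.49, 1.47 and 1.40. Il18r1, an IL-18 receptor chain, was at least 4.8-fold lower. The common gamma chain gene Il2rg stood at -0.09 (adjusted p 0.0913). Il10rb, shared by receptors of the IL-10 family, fell by 0.82, and Tgfbr2, which binds TGF-beta, by 0.91.

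Of 17 cytokines tested, 8 rose and 5 fell. Csf2, which encodes GM-CSF, read 1.41, 1.41 and 1.39 on control arrays and was well above background on no IL-4 array, a difference of at least 37.4-fold. Ltb, the lymphotoxin beta subunit that organises lymphoid tissue, fell from 7.45, 7.44 and 7.46 to 4.76, 4.70 and 4.54, and Il18 fell by 2.77. Il6 rose from 1.93, 2.09 and 2.06 to 3.53, 3.56 and 3.65. Csf1, the macrophage growth factor, rose by 1.34, and dimmer probes of it rose by 3.42 and 3.47. Il16 fell by 1.18. The groups did not overlap for any cytokine named here.

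Chemokine genes fell more often than they rose: of 12 tested, 2 rose and 8 fell, with a median of -0.76 against -0.04 over all genes. Ccl5, a chemoattractant for T cells and monocytes, stood at 7.95, 7.94 and 7.90 on control and 3.67, 3.75 and 3.78 on IL-4 arrays, a fall of 4.19 ± 0.070 (SE). Ccl22, the ligand of CCR4, fell by 1.52, Ccl3 by 0.76 and Ccl9 by at least 2.66-fold. The rises were Ccl4 (0.89) and Xcl1 (2.25), and Xcl1 spread widely among the IL-4 arrays (-1.43, -1.20 and -0.31). Ccl1, a ligand of CCR8, fell by 2.18, and Cxcl16 and Cxcl1 by 0.75 and 0.54. Cxcl10 was well above background on all control arrays and on 1 IL-4 array.

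Receptors that place B cells in tissue moved in both directions, with 8 of 20 tested rising and 9 falling. Gpr183, the oxysterol receptor EBI2 that guides B cells to the outer follicle, rose from 1.28, 1.26 and 1.32 to 3.13, 3.15 and 3.09, and S1pr3, a receptor for sphingosine phosphate, from 0.55, 0.52 and 0.58 to 3.34, 3.30 and 3.23. Ccr4 was at least 23.4-fold higher. On the other side, Ccr10, a receptor of plasma cells homing to mucosa and skin, fell by 3.17, the scavenging receptor Ackr2 by 3.02 and Cxcr5, which leads B cells into follicles, by 0.89. Ccr9, the gut homing receptor, was at least 1.73-fold lower, and Ackr3 fell by 1.76. P2ry10 rose by 1.03, while Ccr7, which leads cells into the T cell zone, fell by 0.30 and Cxcr4 rose by 0.49. With Ccr6 included, 6 were called lower and 4 higher.

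Among 21 adhesion genes, 10 rose and 9 fell. Pecam1 fell by 2.21 and the integrin chain gene Itga4 by 1.12, of which a dimmer probe gave -0.33 and did not pass. Itgb3 rose by 1.36 and Cd44, a receptor for hyaluronan, went from 4.71, 4.84 and 4.79 to 5.84, 5.81 and 5.82. The probes of Itga6 disagreed: the brighter, which stands for the gene, rose by 1.05 and a dimmer probe fell by 1.41, so no direction is given for it. Selplg, the selectin ligand PSGL-1, rose by 1.83 and Alcam by 1.18. Itga5, the fibronectin receptor chain, and Itgax (CD11c) were at least 3.55-fold and 1.8-fold higher, and Cdh17 was at least 1.7-fold lower.

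Heavy-chain constant regions changed in opposite directions by isotype. Ighg1 stood at 3.61, 3.67 and 3.76 on control and 6.41, 6.40 and 6.39 on IL-4 arrays, a rise of 2.72 ± 0.071 (SE), and a second Ighg1 probe rose by 1.11. Ighe went from 0.72, 0.73 and 0.67 to 3.40, 3.33 and 3.28. Ighg2b fell from 6.58, 6.69 and 6.64 to 0.96, 0.97 and 0.74, which is 53.7-fold. Ighg3 fell by 2.88 and Ighm, the first isotype a B cell makes, from 8.54, 8.54 and 8.58 to 7.49, 7.49 and 7.45. The probe that the array describes as Ighg2c read 1.54, 1.44 and 1.43 on controls and -3.79, -3.54 and -3.74 with IL-4, where 1 array was well above background. Igha read 2.96, 3.63 and 2.80 against 2.68, 2.60 and 2.37, with control 2 above the other controls and adjusted p 0.0421. Constant regions of the IgG classes are similar in sequence, and cross-hybridisation between their probes was not tested. Which IgG2 gene the Ighg2c probe reads in BALB/c cells was not tested either.

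**Figure D3:**
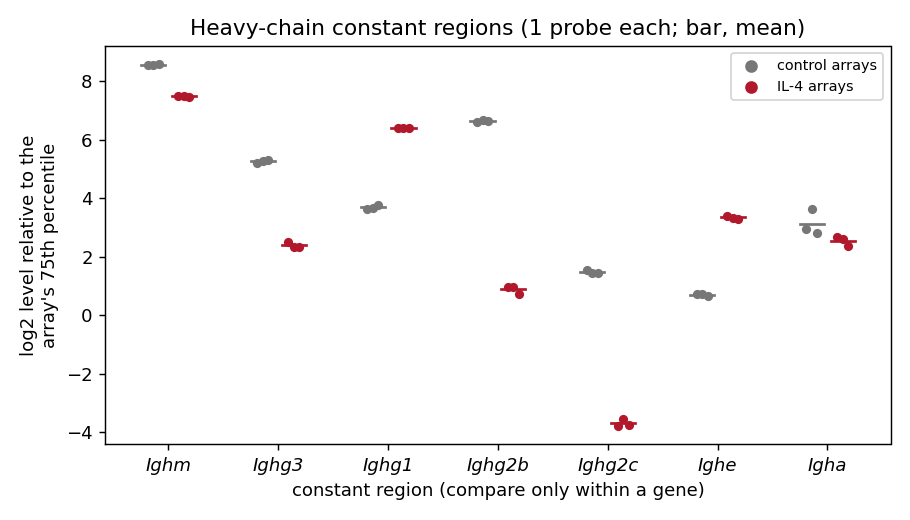
Levels of 7 heavy-chain constant regions on single arrays (log2 relative to the 75th percentile of the array), with grey points for controls, red points for IL-4 and a bar at each mean. Regions are named by the array's descriptions of the probes. Ighg1 and Ighe lie higher with IL-4 and Ighm, Ighg3, Ighg2b and Ighg2c lower, without overlap.

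Genes of the switching machinery were mostly below 2-fold. Xrcc5, the Ku80 subunit of DNA end joining, fell by 1.42 and was the only repair gene of the list called. Igj, the joining chain of secreted IgM and IgA, fell from 6.35, 6.42 and 6.40 to 0.45, 0.61 and 0.64. Of 32 immunoglobulin and switching genes tested, 7 rose and 19 fell, with a median of -0.34.

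Signalling genes of the B cell receptor fell in most cases. Of 30 tested, 6 rose, 17 fell and 7 did not pass, with a median of -0.58. Syk, the kinase that couples the receptor to its pathway, fell from 5.39, 5.38 and 5.33 to 2.37, 2.40 and 2.37, which is 7.89-fold. Cr2, the complement receptor CD21 of the coreceptor, fell from 4.86, 4.73 and 4.62 to 1.37, 1.26 and 1.23. The adaptor Bank1 fell by 2.43, the inhibitory lectin Siglecg by 1.65 and the kinases Blk and Lyn by 1.26 and 1.11. The receptor's own chains parted, with Cd79a lower by 0.91 and Cd79b higher by 0.64. The tetraspanin gene Cd53 was the only member called higher (1.64).

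CD23 was an exception among the Fc receptors. Fcer2a rose from 6.33, 6.35 and 6.43 to 8.01, 7.97 and 7.94, a change of 1.60 ± 0.050 (SE, adjusted p 1.85e-09, limma). In contrast, 8 of the 11 Fc receptor and Fc receptor-like genes tested fell, and all 8 of these were called. Fcgr2b, the inhibitory IgG receptor of B cells, fell from 3.45, 3.49 and 3.43 to 1.46, 1.39 and 1.31. Fcgr3 fell by 1.95 and Fcer1g, the shared signalling chain, by 2.86. Fcrl1 was at least 5.23-fold and Fcgr4 at least 3.32-fold lower. Neither was well above background on any IL-4 array, and a member tested only through the group where it is high had to differ. The list's median was -2.07. Under the processing alternatives given below, 5 to 8 members fell and 1 to 3 rose, and the median ran from -2.12 to -1.40. The probes of Pigr disagreed, at 0.88 for the brighter and -0.76 for a dimmer one, both past the test, so no direction is given for it.

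Costimulatory molecules split, 8 of 21 rising and 9 falling. The T cell immunoglobulin and mucin family members Havcr1 (TIM-1) and Timd2 rose by 2.44 and 2.64. Slamf1 rose from 2.34, 2.39 and 2.38 to 4.56, 4.50 and 4.44. Icosl, the ligand of ICOS on helper T cells, fell from 3.17, 2.97 and 3.00 to -0.32, -0.38 and -0.47, and Cd80 from 3.96, 3.95 and 3.94 to 2.19, 2.20 and 2.17. Cd86, the partner ligand of CD28, stood at -0.24 with adjusted p 0.127. Cd28 itself rose by 1.84, and Cd5, Cd6, Slamf9 and Cd2 fell by 2.19, 1.71, 1.55 and 1.13.

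In the TNF superfamily 10 of 26 genes rose and 11 fell, with 7 called higher and 4 lower. Ltbr, the lymphotoxin beta receptor, was at least 5.61-fold higher, while its ligand chain Ltb fell, as given above. Tnfrsf12a and Tnfrsf11a (RANK) rose by 1.41 and 1.60. Tnfrsf8 (CD30) was well above background on 1 control array and on all IL-4 arrays. Tnfrsf13b, the TACI receptor, fell from 7.48, 7.42 and 7.41 to 6.25, 6.32 and 6.30, and Cd40 by 0.72. Tnfsf9, the ligand of 4-1BB, and Tnfsf14 rose by 1.63 and 1.14, and Tnfrsf19 by 1.45. Tnfsf10 (TRAIL) was at least 2.58-fold lower.

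MHC genes changed little. Of 15 class II and loading genes 6 rose and 3 fell, with a median of 0.19. The peptide exchange factor genes H2-DMa and H2-DMb1 rose by 0.91 and 0.48, Ifi30, a lysosomal thiol reductase, by 0.59 and H2-Oa by 0.36. H2-Aa, a chain of the presenting molecule, read 2.76, 2.70 and 2.62 without and 2.79, 3.00 and 2.86 with IL-4 and did not pass (adjusted p 0.105). March1, a ubiquitin ligase that removes MHC class II from the surface, was the only member called (1.10), and its second probe gave 0.35. H2-Eb2 and Ctss fell by 0.80 and 0.46. Of 28 class I genes 14 rose and 7 fell, none called higher and only H2-T24 called lower (-2.89). MHC genes are near-identical copies in part, so values of single class I genes are uncertain.

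Regulators of plasma cell and B cell fate fell in the majority, 17 of 28 tested against 9 that rose (median -0.45). The list mixes drivers of the plasma cell fate with factors that oppose it, so its count gives no direction for that fate. Prdm1, which encodes Blimp-1, the repressor that commits B cells to secretion, fell from 2.02, 1.88 and 1.99 to -0.95, -0.77 and -0.83. Bcl6, which opposes Blimp-1 in germinal centres, rose from 3.24, 3.28 and 3.26 to 4.41, 4.35 and 4.44. Irf4 rose by 0.29 and Xbp1, a driver of the secretory programme, by 0.87. Zbtb32 fell from 5.30, 5.36 and 5.30 to 2.48, 2.57 and 2.65 and Id3, an inhibitor of E proteins, from 4.80, 4.93 and 4.94 to 0.66, 0.83 and 0.77. Derl3 and Ly6d fell by 3.07 and 3.05, and Pax5, the B cell identity factor, by 0.78.

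Other transcription factors rose more often than they fell (19 against 9 of 36 tested, median 0.44). Nfil3, a basic leucine zipper factor, rose from 2.73, 2.78 and 2.76 to 6.33, 6.36 and 6.38. Egr2 rose by 2.37, the AP-1 family members Fosl2 and Batf3 by 3.07 and 2.52, Klf2 by 2.11 and Mafg by 1.14. Pou2f2 (Oct-2) fell from 4.04, 3.99 and 4.11 to 2.60, 2.48 and 2.62, Hhex by 1.63 and Bhlhe40 by 1.91. Klf4, Zbtb46 and the aryl hydrocarbon receptor gene Ahr rose by 1.34, 1.35 and 1.14, whereas Klf10 and Rora fell by 1.71 and 1.54. Tbx21 was well above background on no wild-type array and is given no value.

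LPS was present in all cultures. Genes of the NF-kB and Toll-like receptor pathways, of which the LPS pathway is a part, moved both ways (11 of 34 rose, 15 fell). Ly86 (MD-1) and Cd180, which form a regulator of LPS signalling, fell by 1.43 and 1.77. Tlr12 and Tlr2 fell by 3.40 and 1.09, and Nfkbia, the inhibitor of NF-kB, from 8.70, 8.71 and 8.66 to 7.78, 7.80 and 7.79. Nfkb1 rose from 3.09, 3.14 and 3.16 to 4.42, 4.43 and 4.59, and Tlr7 rose by 1.54. Tlr4, the receptor for LPS, fell by 1.11 and Nfkbiz by 1.31. The adaptor gene Myd88 stood at -0.01 and did not pass.

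Interferon-stimulated genes fell almost throughout: 44 of 51 tested fell, 1 rose (Slfn5, 0.22) and 6 did not pass, with a median of -0.92 against -0.04 over all genes, and 23 were called lower. Ifit1, which binds foreign RNA, stood at 1.25, 1.35 and 1.43 on control and -1.34, -1.26 and -1.22 on IL-4 arrays. Mx2 fell by 3.03, Samd9l by 3.27, Rtp4 by 3.41 and Ifih1, the RNA sensor MDA5, by 1.31. The GTPase gene Gbp3 went from 5.03, 5.22 and 5.12 to 2.56, 2.60 and 2.63. Isg15, a ubiquitin-like modifier, fell by 0.83, Irf7, a regulator of interferon genes, by 2.44 and Usp18, which limits interferon signalling, by 2.96. The GTPase genes Gbp2 and Irgm1 fell by 1.98 and 1.89, Dhx58 and Oasl1 by 1.66 and 1.29. Irf9, the DNA-binding subunit of the interferon-activated complex, fell by 0.60 and Stat2 by 0.42. Mx1 was at least 9.66-fold lower.

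Genes of granules and protease control held some of the largest rises. Gzma, a serine protease known from cytotoxic lymphocytes, was well above background on no control array and read 2.16, 2.54 and 2.30 on IL-4 arrays, at least 70.8-fold higher. Gzmb and Gzmc were at least 3.01-fold and 4-fold higher. Cst7, the cystatin that inhibits cathepsins, rose from 3.42, 3.54 and 3.47 to 6.35, 6.37 and 6.34. Serpinb9, an inhibitor of granzyme B, rose by 2.07 and Ctsl, a lysosomal protease, by 2.00. Serpina3g, a cathepsin inhibitor, rose from 4.21, 4.23 and 4.18 to 7.89, 7.88 and 7.80. Serpina3 genes are a cluster of close copies, so probes may not separate them. Of 31 genes tested 17 rose and 9 fell, and Prf1, which encodes perforin, fell by 0.46. Serpinb1a and Serpini1 fell by 2.00 and 1.60, and Serpinb2 was at least 1.97-fold lower.

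Survival genes moved in both directions, 17 of 31 rising and 8 falling. Bcl2l1, which encodes the protective Bcl-xL, rose from 5.51, 5.63 and 5.62 to 6.46, 6.51 and 6.36, and Pim1, a kinase gene known as a STAT5 target, by 1.56. Cflar, an inhibitor of caspase-8, rose by 0.96. Mcl1, another protective member, fell by 0.79. The death-promoting genes parted, with Bik higher by 2.72 and Bmf lower by 2.03. Bcl2l15 and Bid fell by 2.52 and 1.07, and Bcl2 itself stood at 0.01 and did not pass. Casp6 rose from 1.98, 2.11 and 2.07 to 4.94, 4.96 and 4.89.

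Of 42 cell cycle genes 20 rose and 6 fell, with a median of 0.16 and 4 called. The 4 were regulators: the inhibitor Cdkn1a (p21) and the cyclin Ccnd2 were higher by 2.18 and 1.32, and Cdkn2a and Cdkn2b, neighbouring inhibitor genes, were lower by 2.88 and 2.00. A second, dimmer probe of Cdkn1a rose by 2.42, while another fell by 0.30. Cdkn2a stood at 5.41, 5.30 and 5.37 without and 2.34, 2.36 and 2.72 with IL-4. Ccnd3 and Cdt1 rose by 0.65 and 0.65. Mki67, a marker of dividing cells, read 5.74, 5.74 and 5.70 and 6.00, 5.89 and 5.95, a rise of 0.22.

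Genes of the amino acid response, which ATF4 drives when amino acids run short or proteins misfold, rose together: 32 of 38 tested rose, 1 fell (Shmt1, -0.47) and 5 did not pass, with a median of 0.80 and 16 called higher. Atf5 rose from 5.50, 5.67 and 5.53 to 8.34, 8.34 and 8.25, and Trib3, a pseudokinase that restrains the pathway, by 2.32. The amino acid transporter genes Slc7a3, Slc7a5 and Slc7a1 rose by 2.04, 1.28 and 0.88. Cth, which makes cysteine, rose by 2.24, Asns, the asparagine synthetase, by 1.34 and Psph, of serine synthesis, by 1.18. Vldlr, a lipoprotein receptor, rose by 2.79, Chac1, which degrades glutathione, by 1.63 and Sesn2, a sensor of leucine, by 1.44. All 12 aminoacyl-tRNA synthetase genes of the list rose, from 0.46 for Mars to 1.44 for Eprs. Atf4 itself went from 7.82, 7.89 and 7.83 to 8.60, 8.68 and 8.68. The list was written with earlier results of these data known, so its direction is not independent evidence.

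Of 36 genes of the unfolded protein response and secretion 14 rose and 8 fell, and the median was 0.00. Ddit3 (CHOP), an ATF4 target, rose by 1.97 and Derl1 by 1.07, whereas Derl3 fell, as given above, and the chaperone gene Dnajb9 fell by 0.95. Sterol and fatty acid synthesis fell: 29 of 37 genes fell and 1 rose, with a median of -0.55. Most of these falls were small, with 5 called. Cyp51, a demethylase of the sterol pathway, fell from 2.22, 2.31 and 2.26 to 1.12, 1.13 and 1.15, and Mvd, Nsdhl and Dhcr7 by 0.87, 0.95 and 0.93. The elongase gene Elovl7 was at least 18.8-fold lower. The exception was Abcg1, a sterol exporter, which rose by 1.60.

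Glycolysis and hypoxia genes mostly did not pass in wild-type cells under the main settings: 4 of 33 rose, 3 fell and 26 did not pass. Under the processing alternatives given below, 3 to 9 rose and 1 to 11 fell, so these counts depend on the settings. Without single wild-type arrays 4 rose and 2 to 4 fell. The main fit takes the spread from the arrays of both genotypes, and SEs were wide for some members, such as Bnip3 (0.61). Vegfa, the endothelial growth factor, rose from 2.10, 2.15 and 2.04 to 4.74, 4.78 and 4.72, Car9 by 1.23, Pfkp by 0.94 and Hif1a by 0.44. Ankrd37 fell by 1.91 with a wide SE (0.60), and without control array 1 it no longer passed (adjusted p 0.059). Pfkfb3, which raises glycolytic flux, fell by 0.74.

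**Figure D4:**
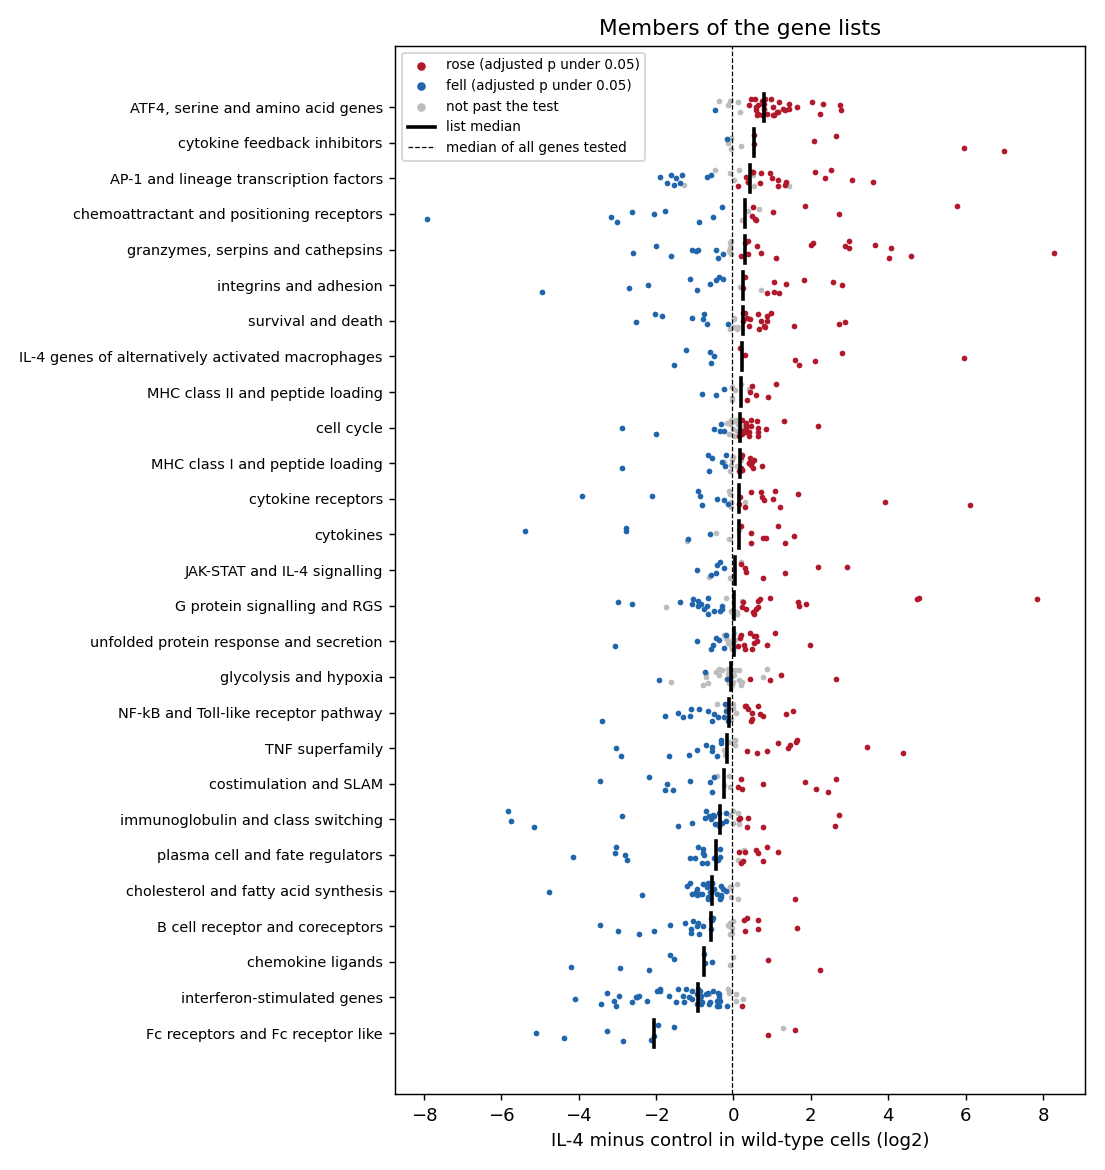
Every tested member of the 27 gene lists as a point at its IL-4 minus control difference in wild-type cells (log2), red where it rose, blue where it fell and grey where it did not pass the test; black bars are list medians and the dashed line the median of all genes (-0.04). The lists are ordered by median, from ATF4 and amino acid genes (0.80) to Fc receptors (-2.07), and every list holds members on both sides of that line.

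G protein signalling held 3 of the largest rises beside an even balance, 16 of 41 genes rising and 16 falling (median 0.02). Gnb4 rose from -0.81, -0.65 and -0.83 to 4.08, 4.05 and 3.95, Plcd1 from -1.39, -1.28 and -1.52 to 3.42, 3.39 and 3.27 and Htr7 as given above. The gamma subunit gene Gng12 rose by 1.87 and Gna15, an alpha subunit that couples to phospholipase C, by 1.69. The adenylyl cyclase gene Adcy6 rose by 1.67, and the phosphodiesterase gene Pde4a, which degrades cyclic AMP, fell by 1.39. Rgs3, which speeds G protein shut-off, fell by 0.91, and Rgs13, a regulator found in germinal centre B cells, was at least 2.88-fold lower.

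Of 28 genes known as IL-4 targets in mouse macrophages 12 were tested in these B cells, of which 7 rose and 5 fell. Tgm2, a transglutaminase, rose by 1.70, Clec7a (dectin-1) was at least 2.62-fold higher, and Kdm6b, a histone demethylase, rose by 2.11 beside Socs2 and Fcer2a. Ccl22, Matk and Myc of the same list fell by 1.52, 1.23 and 0.58.

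For 196 genes called higher and 258 called lower, the dimmer group was not well above background on any array, so the change is a lower bound that compares the brighter group with the lowest signal well above background. The largest bound belonged to Thy1, a glycoprotein known from T cells and, in mice, from other cell types. Its probe (at chromosome 9, 43856591 to 43856650, mm9) read 6.77, 6.82 and 6.71 on IL-4 arrays and was at least 1530-fold higher than on controls. Next were Gzma, then Vsig2, the T cell receptor segment Trav14n-1, Rai14 and Nes, which encodes the intermediate filament nestin, with lower bounds of 43.8-, 37.1-, 33.1- and 29.3-fold. Ccr4, Esam, Frmpd1 and Sphk1, a kinase that makes sphingosine phosphate, were at least 23.4-, 19.7-, 19.7- and 19.5-fold higher.

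On the lower side Csf2 led, followed by Itln1, an intestinal lectin gene, Ccdc67, Cd5l, a secreted scavenger receptor family protein, and Elovl7, with bounds of 34-, 27.1-, 23.8- and 18.8-fold. Cpd, Gpr34 and Pcp4l1 were lower by at least 17-, 11.9- and 9.66-fold and Acsbg1, an acyl-CoA synthetase, by at least 9.45-fold. A gene entered the tests if the 3 arrays of any of the study's 4 groups all measured it well above background. A member that passed only through the group where it is high had to differ, and counts over tested members do not cover all listed genes.

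Because Thy1, Gzma and some receptors are markers of other cell types, the marker lists were read as a whole. A sum of linear signal follows its brightest probes, and so is compared here only between groups within a list. T cell markers summed to 38.4 to 40.2 in linear signal on control and 140 to 148 on IL-4 arrays, where Thy1 alone gave 109, 113 and 105. On control arrays the kinase gene Lck made up 80.6% to 82.4% of the sum. Of 13 T cell markers measured, 8 were well above background on every wild-type array and 4 (Cd247, Cd8a, Cd8b1 and Bcl11b) on none. Cd3e and Cd4 did not pass, Cd3d rose by 0.73 and Zap70 and Cd5 fell by 1.25 and 2.19. Markers of NK and innate lymphoid cells summed to 6.56 to 7.34 and 9.41 to 11.1, and on IL-4 arrays Gzma alone gave 47.3% to 52.6% of the sum. Of 10, 3 were well above background on every wild-type array and 5, Ncr1 and Klrb1c among them, on none. Macrophage markers summed to 65.5 to 68.2 without and 26.3 to 27.2 with IL-4, and on control arrays Mpeg1 gave 43.3% to 43.7% of the sum. Of 13, 6 were well above background on every wild-type array and 4, Lyz1, C1qa and C1qc among them, on none. Dendritic cell markers summed to 113 to 137 and 134 to 142, of which Siglech alone made up 73.2% to 78.5% and 83.7% to 84.3%. Of 8, 4 were well above background on every wild-type array, and Xcr1 and Clec9a on none. Neutrophil markers summed to 66.7 to 81.4 and 82.3 to 98.6, of which the cytokine receptor gene Csf3r alone made up 99.1% to 99.4% and 99.1% to 99.6%. Of 9, 2 were well above background on every wild-type array, and Ly6g, Mpo, Ngp and Ltf on none. Mast cell and basophil markers summed to 0.758 to 0.897 and 0.297 to 0.428, erythroid and platelet markers to 1.17 to 1.62 and 1.82 to 1.94, and stromal markers to 4.38 to 4.98 and 3.16 to 3.71. In these lists 0 of 10, 2 of 8 and 3 of 8 were well above background on every wild-type array. What part such cells have in the falls of Mpeg1 and Cd5l or the rises of Gzma and Thy1 was not tested.

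The wild-type response was then set beside that of STAT6-deficient cells. The Stat6 probe read means of 1.24 and 1.42 on knockout control and IL-4 arrays, against 3.18 and 3.36 on wild-type arrays, and whether it lies in the deleted part of the gene is not given in the sources used here. The same test called 130 genes higher (0.788%) and 451 lower (2.73%) in STAT6-deficient cells, and the difference of the responses, wild type minus knockout, was called for 1756 genes in either direction (10.6%). The genotypes' responses share no arrays, but the knockout controls were split over 2 slides and all knockout IL-4 arrays lay on the second. Of the wild-type calls, 677 higher and 635 lower had a called difference in the same direction. The difference contains the wild-type arrays that made the calls, so these 2 counts are not independent of the calls. Htr7, Cish and Il5ra stood at 0.74, 0.64 and -0.07 in the knockout, and their differences were 7.09 ± 0.26, 6.35 ± 0.21 and 6.19 ± 0.14 (SE; adjusted p 1.67e-08, 9.79e-09 and 7.03e-10). Plcd1 and Ndrg2, which rose in wild-type cells, stood at -1.08 and -2.33 in the knockout. Among the falls, Ccr6, Nid1, Ighg2b, Pla1a and Ccl5 stood at -1.45, 0.22, -0.29, 0.64 and 0.30 without STAT6.

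For the switched isotypes, Ighg1 and Ighe stood at 0.13 and -1.33 in the knockout, with differences of 2.59 ± 0.10 and 3.96 ± 0.14. The Ighm responses, -1.08 and -0.88, had a difference of -0.19 ± 0.061 (adjusted p 0.0262). Prdm1 stood at -2.81 and -1.69, a difference of -1.13 ± 0.11. A smaller set changed in the same direction whatever the genotype, 63 genes called higher and 265 lower in both, or 6.68% and 23.1% of the wild-type calls, while 44 were called in opposite directions. With the largest changes of that kind stood Cox6a2 (2.86 and 2.12), a subunit of cytochrome oxidase, Cth (2.24 and 1.88), Igj (-5.82 and -3.44) and Prg2 (-3.46 and -2.76). For Mei4, Tmem178, Zfp827, Tmed6, Prg3 and Pinlyp the dimmer wild-type group was not well above background. The ATF4 list had medians of 0.80 in wild-type and 0.82 in knockout cells, and 4 of its 38 genes had a called difference, a share near the 10.6% over all genes. The interferon-stimulated genes had medians of -0.92 and 0.22, with 30 of 51 called.

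**Figure D5:**
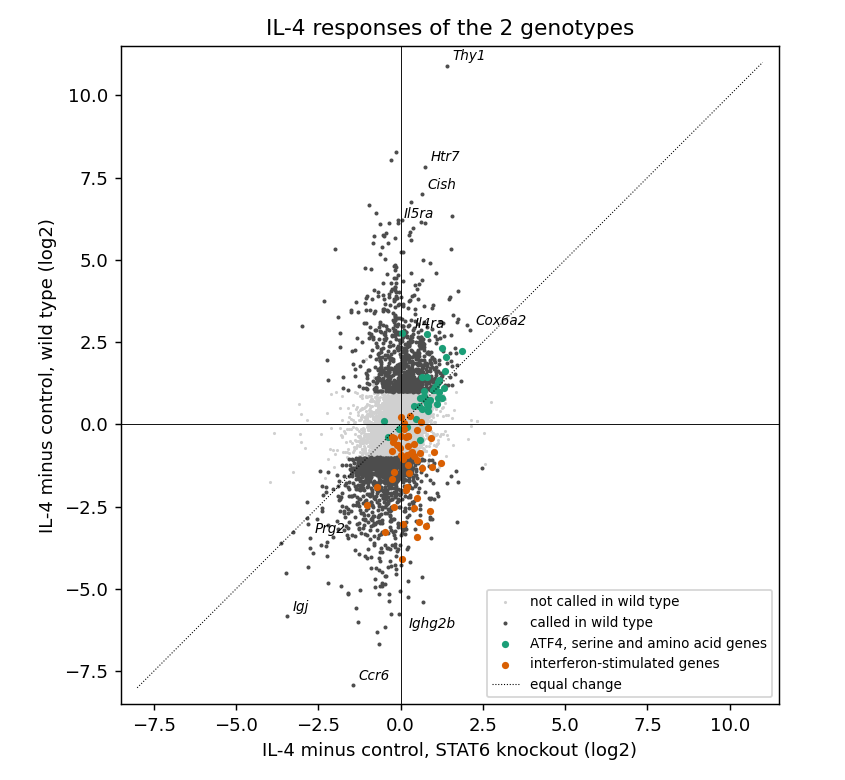
Each point is a gene at its IL-4 minus control difference in knockout (horizontal) and wild-type cells (vertical), both log2; the dotted line marks equal change. Genes called in wild type (dark) spread along the vertical axis, the ATF4 genes (green, medians 0.80 and 0.82) lie near the line, and the interferon-stimulated genes (orange) have a median below 0 in wild type (-0.92) and above 0 in the knockout (0.22).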

How the data were processed

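Total RNA of 12 cultures was measured on 1-colour Agilent mouse arrays. The deposited scanner files, made with Agilent Feature Extraction 10.7.3.1 per the file headers, give a background-corrected intensity (processed signal) per spot. The authors also deposited gene-level log2 values that were background subtracted and quantile normalized, per the file headers, which were used as an alternative. Control spots and outlier spots were left out, log2 intensity was set relative to the 75th percentile of each array, spots of a probe were averaged, and 22940 probes well above background on all 3 arrays of a group were kept. The brightest kept probe stood for each of 16498 genes. Groups were compared with limma 3.58.1 (lmFit, eBayes) in R 4.3.3, fitted on all 12 arrays, with Benjamini-Hochberg adjustment over all genes; data.table (version 1.17.8) and jsonlite (version 2.0.0) read the files, and Python 3.11.15 with pandas 2.3.3, numpy 2.4.6 and matplotlib 3.10.9 searched promoters and drew figures. The number of arrays limits the precision.

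The genes named are those fixed by role, the 25 largest rises and falls and the 10 largest bounds each way. The ranked rises and falls were called genes with a symbol, measured on all wild-type arrays and without overlap between the groups. Up to 6 members per list by adjusted p are also named. So are the 5 largest changes shared by both genotypes, each way. The 5 largest differences each way were taken only among the 25 ranked rises and 25 ranked falls, not among all genes tested. Other list members named were chosen after their values were seen. Some genes under this rule are left out of the text. The gene lists and marker lists were written with earlier results of these data known. Positions of probes are those of mm9 per the file headers; promoters are RefSeq sequences of GRCm38.p6. Same-numbered wild-type arrays had deviations that correlated at 0.0383, 0.0710 and 0.0312, so the numbers were not taken to pair the samples. Alternatives were quantile and median scaling, normexp, other filters, probe averaging, other fits and blocks, fold minimums, the deposited log2 values and leaving out each array.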

Additional observations from a re-analysis of the deposited data

Results flagged for a closer look

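The results here are those where the IL-4 response differed between genotypes by the test of the difference itself (limma, wild type minus knockout, log2, adjusted p under 0.05). The genes given come from those fixed by role and from the 5 largest differences each way among the ranked rises and falls, not among all genes tested. With the 2-fold minimum added, 1756 genes were called, and of those given here only Fcer2a and Ighm fell short of it. The response of wild-type cells exceeded that of knockout cells by 7.09 for Htr7, 6.35 for Cish, 6.19 for Il5ra, 6.09 for Ndrg2 and 5.83 for Plcd1. It also exceeded it by 3.96 for Ighe, 3.17 for Il4ra, 2.59 for Ighg1, 1.56 for Bcl6 and 0.97 for Fcer2a. The difference was negative for Ccr6 (-6.47), Nid1 (-5.47), Ighg2b (-5.46), Pla1a (-5.28), Ccl5 (-4.49), Ighg3 (-1.97), Prdm1 (-1.13) and Ighm (-0.19). All 3 knockout IL-4 arrays and 1 knockout control array lay on a second slide, and the part of the slide in these differences was not tested beyond the fit with slide as a block.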

How the results depend on the processing

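Of 2090 wild-type calls, quantile normalization, median scaling, no filter, probe averaging, moderation with trend and robust settings, the fit on the compared arrays alone, slide as a block and the replicate block all kept the count within 1.5 times. The replicate block gave 2091 calls, 2087 of them shared with the fit without it, changed no call of a named gene, and the numbers do not pair the samples. Leaving out 1 array gave 2058 to 2098 wild-type calls (926 to 956 higher, 1124 to 1172 lower), 543 to 647 in the knockout (118 to 166 higher, 412 to 522 lower) and 1652 to 1927 differences (835 to 1046 higher, 788 to 881 lower). Normexp, which here added an offset of 50 to the intensities, gave 1182 wild-type calls (592 higher, 590 lower). It gave 227 calls in the knockout (54 and 173) and 1032 differences (603 and 429). The stricter filter on dim probes gave 712 wild-type falls, 387 knockout calls (84 higher) and 1161 differences (534 lower). With no fold minimum the counts were 9430 (4348 and 5082), 6970 (4539 and 2431) and 7388 (2712 and 4676), and with a 1.5-fold minimum 4014 (1900 and 2114), 1786 (713 and 1073) and 3539 (1606 and 1933). The authors' deposited table gave 1262 wild-type calls (621 lower), 261 in the knockout (45 and 216) and 1053 differences (408 lower). Median scaling gave 234 knockout rises, 42.9% of knockout calls against 22.4%, and 41.5% of called differences were higher against 52.7%; it moved the median difference of all genes from -0.10 to -0.23 and the knockout median from 0.05 to 0.20. The other fold minimums changed the counts by changing the threshold, and the stricter filter tested fewer genes. Beyond this the cause of these shifts was not tested.

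Of 4429 wild-type values of 263 named genes under the alternatives, 4388 kept direction and side of the threshold. Averaging all probes turned Itga6 to -0.178 and Cd86, which did not pass, to 0.000848. The difference for Stat6, which did not pass, turned to 0.0439 (quantile), 0.0601 (normexp), 0.158 (probe average), 0.0608 (slide block) and 0.0364 (deposited table), and ran from -0.0625 to 0.0821 without single arrays. That for Irf4 turned to -0.0722 under median scaling and ran from -0.00441 to 0.0984 without single arrays. Knockout values near 0 turned for Ighg1 (-3.25e-05 quantile, -0.0734 probe average, -0.191 deposited table), Il5ra (0.078 median scaling, 0.0516 slide block, -0.154 to 0.0313 without single arrays) and Il4ra (0.00229 deposited table, -0.495 to 0.0162 without single arrays). Signal over background limits 196 rises and 258 falls to bounds.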
